A study of Mus musculus with 18 samples.

Results

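The comparison set 3 bulk RNA sequencing libraries of iPax3 cells against 3 libraries of fetal myoblasts, labelled Fet, over all expressed genes. These 6 libraries were chosen by their labels from the 18 samples of the series. The iPax3 cells were mouse ES-derived myogenic progenitors. Per the growth protocol they were Vcam1+Flk1- cells taken from embryoid bodies, expanded in culture with doxycycline and bFGF through 3 passages, and harvested in a PBS-based buffer. The labels give no strain, cell line, clone or sex for them. The Fet cells came from E14.5 mouse fetuses of the strain written as My5Cre Rosa26YFP, and the tissue-derived cells of the study were lysed just after sorting. The iPax3 libraries therefore stand for cultured cells and the Fet libraries for freshly sorted ones, and culture and cell source cannot be told apart in this comparison. The other bulk groups, with 3 libraries each, were iPax7 cells made in the same way, Emb cells of the same strain at E10.5, and Neo satellite cells of Pax7-ZsGreen mice at postnatal day 3. Their libraries entered the fit and their levels are given where they bear on a gene.

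Skeletal muscle of the trunk and limbs arises from progenitors that carry the paired-box factors Pax3 and then Pax7, and that enter the muscle lineage through the basic helix-loop-helix factors Myf5, Myod1 and Myog. Embryonic myogenesis lays down the primary fibres, and fetal myogenesis adds secondary fibres under a programme in which Nfix is a central regulator. In the iPax3 system a doxycycline-induced Pax3 transgene drives embryonic stem cells toward that lineage. A Cre under Myf5 control, which the strain's name appears to denote, marks every cell that has used Myf5 together with its descendants, so such cells are defined by descent and not by what they express when collected.

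The labels gave no donor, litter or culture batch for any of the 6 libraries, so the spread between them may be technical. Unless the 6 libraries alone are named, p-values and standard errors rest on the spread within groups over all 15 bulk libraries. They therefore also carry the spread of the iPax7, Emb and Neo libraries. Total counts in genes were 56275318, 41307537 and 38798892 in iPax3 replicates 1, 2 and 3, and 516504, 32017618 and 13487821 in Fet replicates 1, 2 and 3. A single read in Fet replicate 1 equalled 1.73 CPM (counts scaled to a common library size), so a gene listed at 0 there may lie below that level, and 13187 genes had a count in it against 20882 and 19701 in the other Fet libraries. Across genes, log2 CPM of the iPax3 libraries correlated with each other at 0.96 to 0.98. The correlation was 0.945 between Fet replicates 2 and 3 and 0.848 and 0.843 between Fet replicate 1 and these. Levels are reported as CPM scaled by the trimmed mean of M-values (TMM), with values always in the order of replicates 1, 2 and 3. Genes with an adjusted p under 0.05 in edgeR's quasi-likelihood test are termed called, and fold changes are iPax3 minus Fet on the log2 scale with their standard error (SE). Each fold compares 3 libraries with 3. Each gene was refitted under up to 14 alternative settings, and a call that did not hold in every one that tested it is given with the number in which it did.

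Of 17571 genes tested, 1498 (8.53%) were called, 500 (2.85%) higher in iPax3 and 998 (5.68%) lower. The called genes lower in iPax3 had a median difference of 5.46 on the log2 scale and 105 of them had 0 counts throughout the iPax3 group, whereas the called genes higher in iPax3 had a median of 1.68 and 12 had 0 counts throughout the Fet group. In 499 of the 500 higher genes and 912 of the 998 lower genes the libraries of the 2 groups did not overlap, and over all tested genes iPax3 lay wholly above Fet in 5301 (30.2%) and wholly below in 3728 (21.2%). Fitted to the 6 libraries alone, the same test called 6369 of 16709 genes (38.1%), 3300 higher (19.7%) and 3069 lower (18.4%), among them 1413 of the 1498, none with the opposite sign. Without the shallow Fet replicate 1 the count was 886 of 18881 (4.69%), 227 higher (1.2%) and 659 lower (3.49%), of which 868 were among the 1498. Leaving out any other library of the comparison also lowered the count, to 662, 899 and 624 without iPax3 replicates 1, 2 and 3, and to 812 and 733 without Fet replicates 2 and 3. Counts of a gene list are therefore given from the fit to all 15 libraries, with those from the 6 libraries alone and with the single omissions that moved them by over 1.5 times. Each list count is to be read beside the share of all genes in the same fit. That share was 2.85% higher and 5.68% lower with all 15 libraries, and 19.7% higher and 18.4% lower with the 6 libraries alone. Scaling by relative log expression instead of TMM lowered the median fold of all genes from 0.03 to -0.11, and the calls were then 374 higher and 1122 lower, so that 25% of calls and not 33.4% were higher in iPax3.

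**Figure D1:**
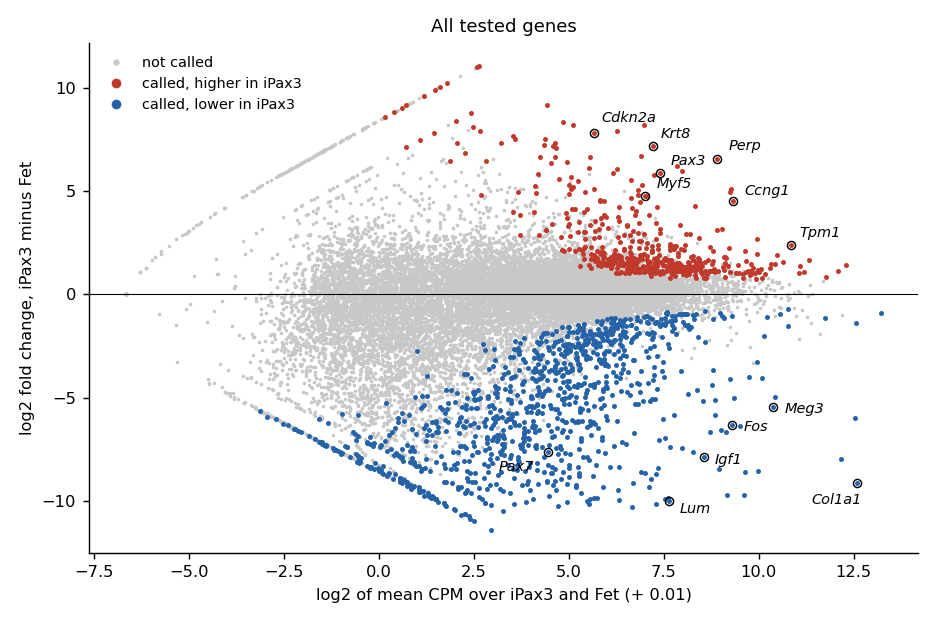
Log2 fold change of iPax3 against Fet (y axis) over the log2 mean CPM of the 6 libraries (x axis) for each of the 17571 tested genes. Each point is a gene, grey where not called, red for the 500 called higher in iPax3 and blue for the 998 called lower, which reach further from 0 than the red ones; named genes are labelled.

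The paired-box factors were reciprocal between the groups. Pax3 (ENSMUSG00000004872, minus strand of chr1:78101267-78197134 in GRCm38) stood at 344, 355 and 295 CPM in iPax3 and at 1.73, 6.70 and 6.27 CPM in Fet, a fold change of 5.86 (SE 0.86, adjusted p = 0.00042). Pax7 stood at 0.280, 0.191 and 0.158 CPM in iPax3 and at 55.3, 43.4 and 32.6 CPM in Fet, a fold change of -7.64 (SE 1.44, adjusted p = 0.0035). Neither gene overlapped between the groups. Reads of the induced Pax3 and of the cell's own gene were not split in the counts, so the Pax3 difference includes whatever the transgene contributed. The mean of Pax3 in Emb, where no transgene is described, was 95.6 CPM, and Pax7 there was 27.8 CPM.

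Myf5, the earliest of the myogenic helix-loop-helix factors, was higher in iPax3, at 283, 170 and 292 CPM against 10.4, 9.81 and 7.91 CPM (fold change 4.75, SE 1.06, adjusted p = 0.011, 11 of 14 alternatives). Its adjusted p was 0.057 without Fet replicate 2 and 0.069 without Fet replicate 3. All iPax3 libraries lay far above all Fet libraries. Myod1, the determination factor that follows, was at 9.35, 6.05 and 0.264 CPM in iPax3 and at 84.7, 31.7 and 30.0 CPM in Fet (fold change -3.20, SE 1.44, adjusted p = 0.19), and Myog, which drives differentiation, was at 96.6, 72.4 and 30.4 CPM against 623, 310 and 387 CPM (fold change -2.72, SE 1.19, adjusted p = 0.18). Every iPax3 library was below every Fet library for both, and both passed when the 6 libraries were fitted alone, with adjusted p = 0.036 for Myod1 and 0.0019 for Myog. Myf6 was too low to be tested.

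Factors that act beside or upstream of these were mostly lower in iPax3. Sim1, a helix-loop-helix factor of migrating limb muscle precursors, was at 0.000, 0.0238 and 0.000 CPM against 12.1, 17.7 and 16.8 CPM (fold change -10.20, SE 1.5, adjusted p = 0.00037). Msc, a helix-loop-helix repressor known in satellite cells and head muscle, was at 0.0875, 0.000 and 0.237 CPM against 69.2, 38.0 and 31.5 CPM (fold change -8.67, SE 2.0, adjusted p = 0.012, 13 of 14 alternatives, 0.07 without iPax3 replicate 1). Lbx1, a homeobox factor of precursors that migrate into the limb, was at 0.0875, 0.143 and 0.0791 CPM against 22.5, 11.5 and 8.77 CPM (fold change -6.99, SE 1.67, adjusted p = 0.015, 10 of 14 alternatives). Its adjusted p was 0.082, 0.056 and 0.085 without iPax3 replicates 1, 2 and 3. Dach1, a partner of Eya2, was also called lower, with a fold change of -4.95. For these 4 factors the groups did not overlap. Eya2 and Met gave no call in the 15-library fit. Eya2 stood at 65.4, 43.8 and 26.6 CPM against 6.92, 9.29 and 9.91 CPM and Met, the receptor that lets limb precursors migrate, at 114, 138 and 101 CPM against 51.9, 39.1 and 32.8 CPM. Over all 24 regulators tested, 2 were called higher and 5 lower with a median fold of -1.93, and the 6 libraries alone gave 6 and 11 of 23. The lower count was 3 without iPax3 replicate 1 and the higher count 1 without Fet replicate 2 or 3.

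**Figure D2:**
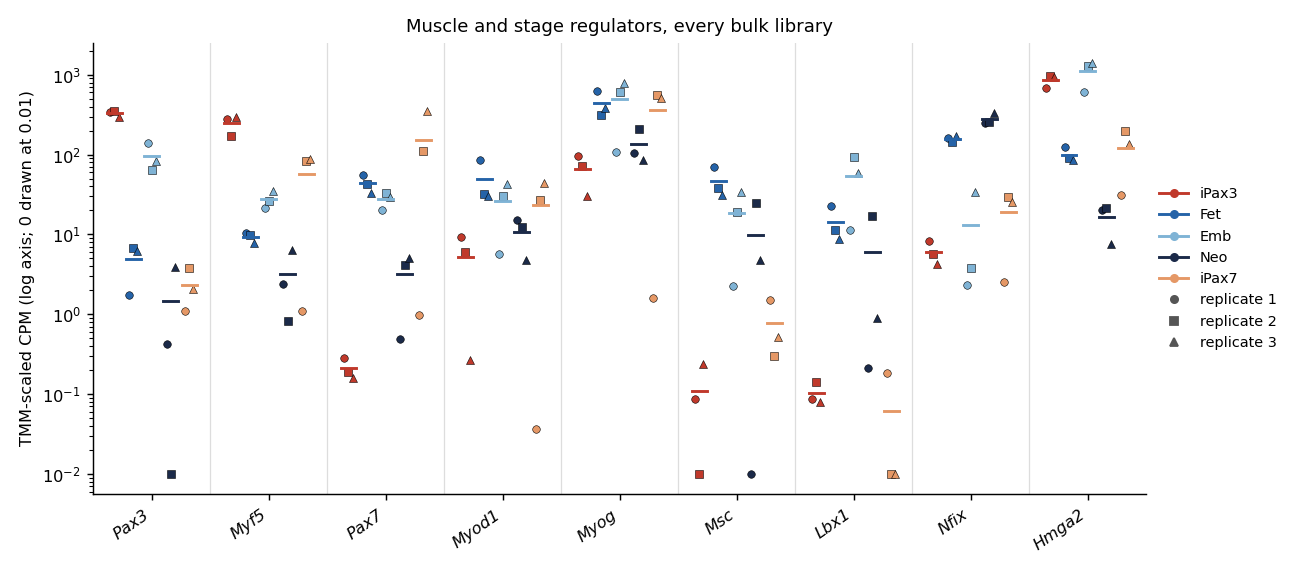
CPM on a log axis of muscle and stage regulators in each of the 15 bulk libraries, by group, with a horizontal line at the group mean and values of 0 drawn at 0.01. Pax3 and Myf5 are highest in iPax3, while Pax7, Msc, Lbx1 and Nfix lie lower in all 3 iPax3 libraries than in all 3 Fet libraries.

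The nuclear factor I genes that belong to the fetal programme were low in iPax3. Nfix was at 8.26, 5.70 and 4.27 CPM in iPax3 and at 161, 143 and 172 CPM in Fet (fold change -4.70, SE 0.96, adjusted p = 0.0063), and the call was lost only without iPax3 replicate 3 (adjusted p = 0.06). Nfib was at 17.9, 50.3 and 8.49 CPM against 752, 516 and 642 CPM (fold change -4.64, SE 0.71, adjusted p = 0.00063), and Nfia at 20.9, 23.7 and 11.6 CPM against 386, 225 and 249 CPM (fold change -3.93, SE 0.90, adjusted p = 0.014, 10 of 14 alternatives). Without iPax3 replicates 1, 2 and 3, Nfia had an adjusted p of 0.082, 0.061 and 0.10. The groups were apart for all 3 genes, but Nfic overlapped between them and had a fold change of -0.44 (SE 0.53, adjusted p = 0.72). Among 14 tested genes linked to fetal muscle, 4 were called lower, these 3 and the basement membrane collagen Col15a1, and none higher (median -2.0), against 6 lower and 2 higher of 13 with the 6 libraries alone and 2 lower without iPax3 replicate 3. Myh8, the perinatal myosin heavy chain, was at 9.57, 3.91 and 1.79 CPM against 67.4, 78.0 and 77.7 CPM without passing (fold change -3.87, SE 1.5, adjusted p = 0.12).

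Genes typical of early embryos and of reactivation in tumours leaned the other way. Hmga2, a chromatin protein of early progenitors, was at 682, 968 and 951 CPM in iPax3 and at 125, 89.6 and 86.3 CPM in Fet (fold change 3.13, SE 0.55, adjusted p = 0.0016), with group means of 1105 CPM in Emb and 16.6 CPM in Neo. Dusp9, a phosphatase that restrains ERK, was at 74.8, 73.8 and 104 CPM against 0.000, 3.66 and 2.85 CPM (fold change 4.96, SE 1.01, adjusted p = 0.0054). Neither gene overlapped between the groups. Trim71, a target of the let-7 miRNAs, was at 48.6, 69.1 and 56.7 CPM against 1.73, 5.0 and 4.99 CPM (fold change 3.71, SE 1.05, adjusted p = 0.04), but this held in 6 of 14 alternatives. The same was true of Arid3a, a DNA-binding factor with a fold change of 2.21. Leaving out any 1 of the 6 libraries ended both calls, with adjusted p from 0.091 to 0.13 for Trim71 and from 0.087 to 0.14 for Arid3a. Of 17 such genes tested, 4 were called higher and none lower, with a median of 1.27, and 11 higher and 1 lower of 16 with the 6 libraries alone. Lin28a was carried by iPax3 replicate 2 alone, at 43.0 CPM against 0.245 and 0.264 CPM in replicates 1 and 3, and was not called.

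Of 16 partners and inhibitors of the myogenic factors, 4 were called lower in iPax3 and none higher, with a median of -0.87, and the 6 libraries alone gave 9 lower and 3 higher. Twist1, which binds and blocks E proteins, was at 0.508, 6.17 and 0.316 CPM against 105, 111 and 82.1 CPM (fold change -5.41, SE 0.90, adjusted p = 0.0011), and Twist2 at 0.105, 0.405 and 0.000 CPM against 36.3, 30.3 and 14 CPM (fold change -7.25, SE 1.48, adjusted p = 0.0054). The E protein Tcf4 was at 119, 154 and 122 CPM against 572, 545 and 539 CPM (fold change -2.07, SE 0.38, adjusted p = 0.0021). The iPax3 libraries were below all Fet libraries for these 3 genes. Id1, Id2 and Id3, which sequester E proteins, were above Fet in every iPax3 library without a call in the 15-library fit, with fold changes of 1.24, 1.33 and 1.89, and each passed with the 6 libraries alone (adjusted p = 0.008, 0.0062 and 0.00086). Twist1 and Twist2 are also markers of connective tissue fibroblasts. Of the 20 fibroblast markers tested, Twist2 among them, 15 were called lower and 1 higher, as given below.

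Contractile genes showed no common shift. None of 12 sarcomeric myosin genes was called in either direction by edgeR's quasi-likelihood test (median -0.37). The perinatal Myh8 was the 1 gene of this list to reach 0.05 before adjustment and the 1 of 11 called with the 6 libraries alone. DESeq2 called 1 gene lower. Myh3, the embryonic myosin heavy chain, was at 358, 400 and 22.8 CPM in iPax3 and at 138, 234 and 187 CPM in Fet (fold change 0.47, SE 1.12, adjusted p = 0.88). For this gene iPax3 replicate 3 lay below the Fet range and replicates 1 and 2 above it. The same library was lowest for Mylpf, a fast myosin light chain (60.8, 71.1 and 10.8 CPM), for Tnnt2 (48.3, 64.7 and 2.74 CPM), for Mef2c, a cofactor of myogenic factors (29.8, 39.4 and 1.03 CPM), and for Myod1. Tnnt3, the fast troponin T, ran against this, with 163 CPM in replicate 3 against 91.8 and 56.8 CPM. Of 36 other sarcomere genes 1 was called (2.78%, near the share of all genes; 5 higher and 4 lower of 34 with the 6 libraries alone), Tpm1, at 2989, 3901 and 2494 CPM against 541, 557 and 679 CPM (fold change 2.40, SE 0.39, adjusted p = 0.00087), with no overlap. Tpm1 encodes tropomyosins of non-muscle cells as well, which gene counts do not separate. Of 20 genes of excitation and contraction coupling edgeR called none, although 3 reached 0.05 before adjustment. With the 6 libraries alone it called 6 higher and 3 lower of these, and DESeq2 called 1 each way.

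Satellite cell markers were mixed, with 2 of 22 called higher, 6 lower and a median of 0.11 (-0.05 under relative log expression), and 5 higher and 8 lower with the 6 libraries alone. The lower count was 3 without iPax3 replicate 1, and the higher count was 1 without iPax3 replicate 1 or 3 or Fet replicate 2 or 3. Cd34 was lower at 0.770, 0.501 and 0.422 CPM against 83.0, 78.6 and 75.0 CPM (fold change -7.10, SE 1.0, adjusted p = 0.00028), and Cav1, the caveolar coat protein, at 16.8, 24.2 and 12.4 CPM against 84.7, 114 and 152 CPM (fold change -2.73, SE 0.41, adjusted p = 0.00047). Both are also expressed by endothelial cells. Tnfrsf12a, the receptor for TWEAK, was higher at 71.1, 72.1 and 61.1 CPM against 0.000, 1.61 and 2.85 CPM (fold change 5.18, SE 0.81, adjusted p = 0.00059). All 3 markers were fully separated. Vcam1, used to sort the starting cells of the iPax3 cultures, was at 368, 182 and 362 CPM against 125, 240 and 174 CPM, and Itga7 at 16, 26.3 and 28.3 CPM against 39.8, 27.6 and 22.0 CPM; the groups overlapped for both.

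Many known target genes of p53 had higher transcript levels in iPax3. The factor p53 responds to DNA damage and oncogenic stress by raising genes that halt the cycle, repair DNA or trigger cell death, together with its own inhibitor Mdm2. Of 15 tested genes that are p53 itself or its known targets, 8 were called higher and 1 lower, with a median of 2.78. That is 53.3% of the list higher against 2.85% of all genes, and the 6 libraries alone called 13 higher and 1 lower of 14. Perp, a membrane protein of p53-dependent death that also belongs to desmosomes, was at 946, 745 and 1161 CPM in iPax3 and at 12.1, 8.99 and 9.98 CPM in Fet (fold change 6.57, SE 0.87, adjusted p = 0.00021). Ccng1, a cyclin that recruits a phosphatase to Mdm2, was at 1141, 1406 and 1124 CPM against 46.7, 52.6 and 57.9 CPM (fold change 4.53, SE 0.72, adjusted p = 0.00091). Neither overlapped between the groups. Cdkn1a, the CDK inhibitor p21, was at 253, 318 and 206 CPM against 32.9, 11.9 and 15.3 CPM (fold change 3.82, SE 0.60, adjusted p = 0.00058), and Mdm2 at 528, 666 and 612 CPM against 83.0, 85.8 and 101 CPM (fold change 2.74, SE 0.28, adjusted p = 1.3e-05). Both lay well apart. Phlda3, Aen, Trp53inp1 and Plk2 were the other 4, with fold changes of 3.40, 2.95, 2.46 and 1.4, and Plk2 had an adjusted p of 0.053 without iPax3 replicate 2 and 0.052 without Fet replicate 1. Trp53 itself stood at 102, 89.2 and 106 CPM against 46.7, 41.0 and 46.5 CPM and did not pass (fold change 1.15, SE 0.37, adjusted p = 0.061). Sesn1, a sestrin that restrains TORC1, was lower at 18.5, 17.6 and 14.8 CPM against 119, 87.5 and 85.3 CPM (fold change -2.52, SE 0.40, adjusted p = 0.00062). Summed over the list, levels were 4399, 4695 and 4470 CPM in iPax3 and 600, 550 and 583 CPM in Fet. The sum was 2243, 2588 and 2050 CPM in iPax7, 585, 859 and 757 CPM in Emb and 1351, 1197 and 1171 CPM in Neo. Activity of p53 was not measured.

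Sequence before the start of these genes was searched for the p53 half-site, on both strands, in the window from 250 bases before to 50 after each RefSeq start (GRCm38.p6), since members of the list moved together. The stretches below are shown because they hold the matches of 3 genes called higher and of Sesn1, the gene called lower. They are printed 5′ to 3′ on the gene's strand with the half-sites in capitals. Those of Cdkn1a are chr17:29090882-29090961 on the plus strand, Ccng1 chr11:40755427-40755506 on the minus strand, Mdm2 chr10:117710900-117710979 on the minus strand and Sesn1 chr10:41887231-41887310 on the plus strand.
Cdkn1a: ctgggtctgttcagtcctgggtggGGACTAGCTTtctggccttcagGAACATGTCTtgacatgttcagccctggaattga
Ccng1: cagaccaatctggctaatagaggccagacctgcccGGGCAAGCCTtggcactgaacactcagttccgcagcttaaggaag
Mdm2: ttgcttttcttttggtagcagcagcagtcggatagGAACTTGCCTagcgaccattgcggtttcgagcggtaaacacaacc
Sesn1: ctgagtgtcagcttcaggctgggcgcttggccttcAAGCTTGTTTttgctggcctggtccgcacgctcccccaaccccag

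A half-site was found for 7 of the 12 list genes with a window (58.3%), against 2582 of all 27025 genes with a window (9.55%). The list was chosen as p53 and its known targets, so this excess may follow from that choice. It is not a result of the expression data. Among the called members the half-site was present in 4 of 6 higher ones, which were Aen, Ccng1, Cdkn1a and Mdm2, and in Sesn1. Sesn1 was the only lower member, so whether a match goes with the direction of the difference cannot be told. Bax and Trp53, which were not called, also held the half-site. A pair of half-sites with a spacer of up to 13 bases, which contains the half-site by construction, occurred in 20 genes (0.074%), of which Cdkn1a was the only one in the list. A match describes letters in this window and is not a measured site of binding.

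Among CDK inhibitors the INK4 genes of chromosome 4 were near absent from Fet. Cdkn2a (ENSMUSG00000044303, minus strand of chr4:89274471-89294653 in GRCm38), whose locus encodes p16 and the p53-stabilising protein p19 ARF, was at 114, 90.0 and 100 CPM in iPax3 and at 0.000, 0.670 and 0.214 CPM in Fet (fold change 7.83, SE 1.12, adjusted p = 0.00047). Gene counts do not separate the transcripts of these 2 proteins. Its neighbour Cdkn2b, encoding p15, was at 39.1, 39.4 and 46.3 CPM against 0.000, 0.244 and 0.214 CPM (fold change 7.55, SE 1.74, adjusted p = 0.012, 12 of 14 alternatives, with 0.068 and 0.077 without Fet replicates 2 and 3). Group means of Cdkn2a were 77.9 CPM in iPax7, 0.0736 CPM in Emb and 0.000 CPM in Neo. Cdkn1c, the imprinted inhibitor p57, went the other way at 49.4, 136 and 8.64 CPM against 738, 943 and 811 CPM (fold change -3.69, SE 1.05, adjusted p = 0.045). Its call held in 6 of 14 alternatives and was lost without any 1 of the 6 libraries, with adjusted p from 0.055 to 0.21. In all 3 inhibitors the groups did not overlap.

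Cell cycle genes were higher in part. Of 37 tested, 3 were called higher and none lower, with a median of 0.41, where relative log expression gave 3 higher and 1 lower and the 6 libraries alone 17 higher and 2 lower. Ccnd1, the cyclin that couples growth factor signals to the cycle, was at 527, 452 and 561 CPM against 45.0, 76.7 and 82.1 CPM (fold change 2.90, SE 0.32, adjusted p = 2.4e-05), with no overlap. Its partner kinase Cdk6 was at 245, 228 and 270 CPM against 62.3, 80.7 and 83.4 CPM, and Rrm2, a ribonucleotide reductase subunit, at 290, 277 and 335 CPM against 79.5, 129 and 103 CPM. Both were called (fold changes 1.70 and 1.52), but without Fet replicate 1 their adjusted p was 0.063 and 0.09. Cdk6 was also lost without Fet replicates 2 and 3 (0.05 and 0.059) and iPax3 replicate 3 (0.052), and Rrm2 without Fet replicate 3 (0.087) and iPax3 replicates 1 and 3 (0.056 and 0.079).

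Immediate early genes, which are transcribed within minutes of a stimulus to a cell, were lower in iPax3. Of 28 tested, 15 were called lower (53.6%, against 5.68% of all genes) and none higher, with a median of -2.08, and the 6 libraries alone called 20 lower and 1 higher. Without iPax3 replicate 1 or 3 the lower count was 9. Fosb was at 3.97, 2.55 and 2.61 CPM in iPax3 and at 873, 488 and 499 CPM in Fet (fold change -7.66, SE 0.56, adjusted p = 4.3e-07). Fos was at 17.0, 18.2 and 11.5 CPM against 1617, 1062 and 1051 CPM (fold change -6.32, SE 0.56, adjusted p = 3.3e-06). Both AP-1 subunits were more than an order of magnitude apart in every pair of libraries. Egr1, a zinc finger factor, was at 57.8, 29.3 and 30.3 CPM against 1152, 633 and 724 CPM (fold change -4.41, SE 0.53, adjusted p = 5.3e-05), and Zfp36, which triggers decay of cytokine mRNAs, at 11.1, 13.8 and 12.8 CPM against 261, 115 and 150 CPM (fold change -3.78, SE 0.37, adjusted p = 7.6e-06). Klf4 and Nr4a2, also among the 15, were lost without any 1 of the 6 libraries, with adjusted p from 0.092 to 0.19. Junb was at 17.5, 24.1 and 16.6 CPM against 116, 52.5 and 56.1 CPM (fold change -1.91, SE 0.39, adjusted p = 0.0059). In the other freshly sorted groups the mean of Fos was 96.1 CPM in Emb and 5856 CPM in Neo, and in cultured iPax7 it was 12.2 CPM. Summed over the 28 genes, iPax3 stood at 999, 1146 and 965 CPM and Fet at 6728, 4452 and 4546 CPM. The same sum was 668, 1331 and 1257 CPM in Emb, which overlapped iPax3 and lay below Fet. In Neo the sum was 28620, 28147 and 25705 CPM and in iPax7 1050, 858 and 623 CPM. Fresh sorting and cell source cannot be told apart for these genes. Fosl1, a Fos relative known as a target of ERK signalling and placed in the FGF and ERK list, was higher at 46.2, 35.4 and 70.5 CPM against 0.000, 0.305 and 0.499 CPM (fold change 7.09, SE 2.01, adjusted p = 0.037). That call held in 7 of 14 alternatives for Fosl1 and in none that left out 1 of the 6 libraries, with adjusted p from 0.06 to 0.14.

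The starts of immediate early genes are known for elements that bind CREB and the serum response factor. The letters TGACG, the core of the CREB element, and the CArG box of the serum response factor were searched on both strands in the same windows. The 150 bases before the start are shown for 3 genes of the AP-1 family, 5′ to 3′ on the gene's strand with TGACG in capitals. They are chr12:85473740-85473889 on the plus strand for Fos, chr7:19310046-19310195 on the minus strand for Fosb and chr8:84978749-84978898 on the minus strand for Junb.
Fos: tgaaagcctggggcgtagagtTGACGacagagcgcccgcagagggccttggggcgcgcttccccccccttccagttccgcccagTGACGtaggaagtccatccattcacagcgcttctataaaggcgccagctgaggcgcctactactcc
Fosb: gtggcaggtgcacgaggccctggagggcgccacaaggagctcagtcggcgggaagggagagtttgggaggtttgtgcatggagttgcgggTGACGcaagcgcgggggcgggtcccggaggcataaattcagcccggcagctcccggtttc
Junb: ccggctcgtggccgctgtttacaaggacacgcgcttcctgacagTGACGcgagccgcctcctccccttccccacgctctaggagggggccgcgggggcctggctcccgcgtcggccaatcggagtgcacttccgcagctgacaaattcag

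TGACG was found for 14 of the 25 immediate early genes with a window (56.0%) against 6228 of all 27025 genes (23%). It was present in 8 of the 13 called genes with a window (61.5%), which were Atf3, Dusp1, Egr2, Fos, Fosb, Junb, Klf4 and Nr4a2, and in 6 of the 12 that were not called (50%). In Fos the matches lie 129 to 125 and 66 to 62 bases before the start, in Fosb 60 to 56 and in Junb 106 to 102. The CArG box was found for Egr2 and Zfp36 (8.0%) against 488 of all genes (1.81%), so none of the 3 stretches printed holds both motifs. The windows begin 250 bases before the start, so a CArG box further upstream would not have been found. These shares describe letters in the windows of a gene class already known for such elements, and no binding was measured.

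**Figure D3:**
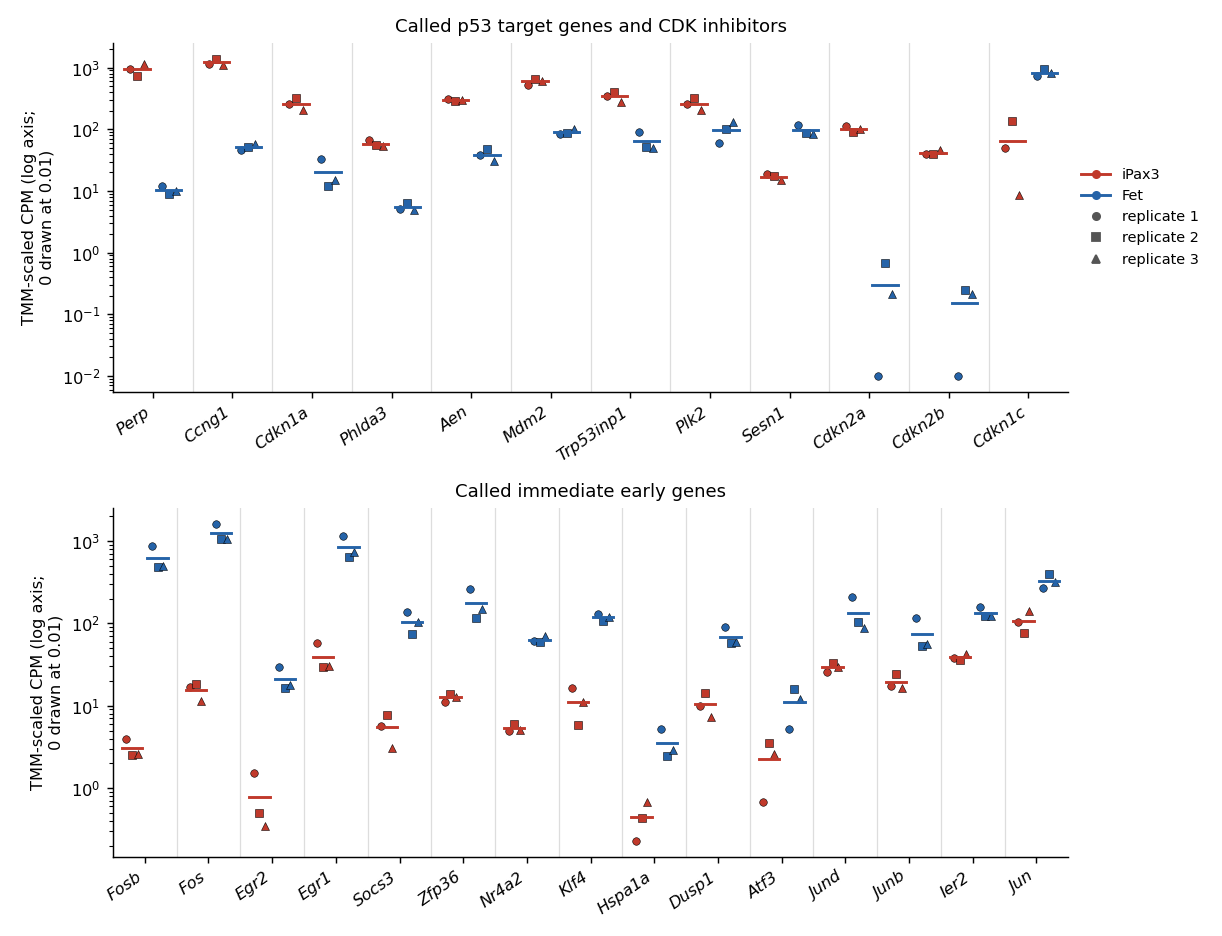
CPM on a log axis in each iPax3 and each Fet library, at top for the called genes among p53 and its targets and the CDK inhibitors, at bottom for the 15 called immediate early genes. In the top panel iPax3 points lie above Fet points except for Sesn1 and Cdkn1c, and in the bottom panel all iPax3 points lie below.

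Nuclear genes of oxidative phosphorylation and of the citrate cycle were higher in iPax3 in part of the list, and none of those encoded in mitochondria was. Of 31 nuclear genes, 14 were called higher (45.2%, against 2.85% of all genes) and none lower, with a median of 1.26, and 30 had all iPax3 libraries above all Fet libraries, as 30.2% of all tested genes did. The 6 libraries alone called 29 higher, and the count was 9 without iPax3 replicate 3 and 8 without Fet replicate 3. Atp5b, the catalytic beta subunit of ATP synthase, was at 2161, 2096 and 2530 CPM against 564, 737 and 523 CPM (fold change 1.89, SE 0.21, adjusted p = 2.4e-05), and Uqcrc1, a core subunit of complex III, at 247, 233 and 281 CPM against 81.3, 101 and 71.4 CPM (fold change 1.58, SE 0.27, adjusted p = 0.0011). Ndufs1, the largest subunit of complex I, was at 263, 239 and 280 CPM against 70.9, 114 and 109 CPM (fold change 1.4, SE 0.27, adjusted p = 0.0029). Of 13 mitochondrially encoded genes none was called higher and 4 were called lower (mt-Nd6, mt-Cytb, mt-Nd1 and mt-Co1, median of the list -0.89, with 5 lower by the 6 libraries alone). The largest of these differences was that of mt-Nd6, at 933, 881 and 883 CPM against 1165, 2655 and 3989 CPM (fold change -1.53, SE 0.37, adjusted p = 0.016, 10 of 14 alternatives). These 4 calls were each lost without Fet replicate 3, with adjusted p from 0.1 to 0.25, and without each iPax3 replicate in turn, with 0.061 to 0.18, and 3 of them also without Fet replicate 2, with 0.068 to 0.13. Some other mitochondrial genes were uneven inside a group, such as mt-Co3 at 2694, 5457 and 5.49 CPM in Fet, so their values are not compared. Mitochondrially encoded counts made up 2.22%, 2.32% and 3.01% of iPax3 counts and 3.56%, 5.87% and 5.96% of Fet counts.

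Glycolysis and stress defence genes were higher for a few members. Of 28 genes of glycolysis and hypoxia, 3 were called higher and none lower (median 0.83), against 2 each way under relative log expression and 13 and 5 with the 6 libraries alone. They were Pkm, the last enzyme of glycolysis, at 1534, 1701 and 1550 CPM against 358, 500 and 378 CPM (fold change 1.95, SE 0.36, adjusted p = 0.0025), Pgk1 with a fold change of 1.79 and Aldoa with 1.58. Aldoa was lost without any 1 of the 6 libraries, with adjusted p from 0.07 to 0.15. The hypoxia-inducible Slc2a3 was at 6.49, 146 and 6.06 CPM in iPax3, high only in replicate 2. Of 13 targets or regulators of the oxidative stress factor NRF2, 4 were called higher and none lower (median 1.11; 8 and 2 with the 6 libraries alone, and 2 higher without iPax3 replicate 3 or Fet replicate 3). Txnrd1, thioredoxin reductase, was at 730, 657 and 782 CPM against 190, 166 and 153 CPM (fold change 2.09, SE 0.27, adjusted p = 9.4e-05). G6pdx, which opens the pentose phosphate pathway, was at 78.4, 66.9 and 93.4 CPM against 15.6, 17.4 and 15.4 CPM (fold change 2.30, SE 0.48, adjusted p = 0.006). Phgdh, the entry enzyme of serine synthesis, was at 201, 184 and 304 CPM against 25.9, 60.4 and 33.1 CPM (fold change 2.5, SE 0.50, adjusted p = 0.0047). All of the iPax3 libraries were above the Fet libraries for Pkm, Txnrd1, G6pdx and Phgdh. Of 17 heat shock genes 5 were called higher and 1 lower (8 and 3 with the 6 libraries alone). The higher count was 3 without iPax3 replicate 1 or Fet replicate 1 or 3 and 2 without iPax3 replicate 3. The higher genes included the mitochondrial chaperones Hspd1 and Hspe1 (fold changes 1.28 and 1.71). The stress-induced Hspa1a was lower at 0.228, 0.429 and 0.685 CPM against 5.19, 2.47 and 2.92 CPM (fold change -2.73, SE 0.51, adjusted p = 0.0027), a gene that shares nearly all of its sequence with Hspa1b, so its reads may be split between them. Hspa1a gave an adjusted p of 0.81 when all libraries were thinned to the depth of the shallowest.

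Genes of positional identity were low in iPax3. Hox genes record the level of a cell along the body axis and, in the posterior A and D clusters, its place along the limb. None of 37 tested was called higher and 18 were called lower (48.6%), with a median of -6.95, and the 6 libraries alone called 28 of 31 lower and none higher. Without iPax3 replicate 1 or 3 the lower count was 11. Hoxc4 was at 0.0875, 0.0715 and 0.0527 CPM in iPax3 and at 55.3, 35.6 and 52.2 CPM in Fet (fold change -9.26, SE 0.99, adjusted p = 1.6e-05). Hoxa9 was at 0.280, 0.143 and 0.211 CPM against 22.5, 29.0 and 30.6 CPM (fold change -6.98, SE 0.74, adjusted p = 1.6e-05), and Hoxa10 at 0.315, 0.0953 and 0.158 CPM against 48.4, 26.4 and 29.8 CPM (fold change -7.44, SE 0.79, adjusted p = 1.6e-05). These 3 genes were below 1 CPM in every iPax3 library and above 20 CPM in every Fet library. Hoxb6, named after its values were seen, had no read in any iPax3 library and was at 22.5, 2.13 and 6.27 CPM in Fet, at least 470-fold higher with a floor of 3 counts over the iPax3 group, and at least 192-fold without Fet replicate 1. The low levels were not confined to a cluster, as calls came from all 4. Hoxb9 was the only tested gene with a positive fold, at 9.15, 55.7 and 1.45 CPM against 3.46, 9.75 and 15.8 CPM, where the groups overlapped (fold change 1.11, SE 1.01, adjusted p = 0.60). In iPax7, made in the same way, the mean of Hoxc4 was 0.583 CPM, and in Emb and Neo it was 117 and 31.0 CPM.

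Other factors of somites and limbs gave 14 of 27 lower and none higher, with a median of -3.33 (19 lower and 2 higher of 25 with the 6 libraries alone). The lower count was 7 and 6 without iPax3 replicates 1 and 3 and 9 without Fet replicate 1 or 2. Meox2, a homeobox factor of limb muscle precursors and vessels, was at 0.0525, 0.000 and 0.105 CPM against 45.0, 67.6 and 72.2 CPM (fold change -10.08, SE 1.20, adjusted p = 4.9e-05), and its paralog Meox1 was lower by 4.84. Pax9, of the sclerotome, was at 0.0875, 0.191 and 0.0527 CPM against 27.7, 16.1 and 15.1 CPM (fold change -7.38, SE 1.25, adjusted p = 0.0012), and Zic1, of the dorsal somite and neural tube, at 3.43, 0.477 and 3.40 CPM against 104, 104 and 129 CPM (fold change -5.53, SE 0.93, adjusted p = 0.0015). The groups were apart for each of these. Pax9 marks cells that form cartilage, and 18 of 21 tendon and cartilage markers were also called lower. The retinoic acid pathway, which patterns the same tissues, had 5 of 15 genes lower and none higher (median -2.39; 8 and 1 with the 6 libraries alone; 3 lower without any 1 library except iPax3 replicate 2), led by the binding protein Crabp1 at 0.0875, 0.477 and 0.105 CPM against 41.5, 104 and 82.6 CPM (fold change -8.39, SE 1.44, adjusted p = 0.0013).

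Signalling genes differed by pathway. Of 20 genes of FGF receptors and ERK feedback, 4 were called higher and 5 lower (9 and 6 with the 6 libraries alone). The lower count was 2 or 3 with any 1 of the 6 libraries left out, and 2 without Fet replicate 1. The receptors Fgfr3, at 2.42, 1.55 and 1.21 CPM against 67.4, 27.3 and 31.4 CPM (fold change -4.58, SE 0.69, adjusted p = 0.00047), and Fgfr1, at 41.5, 88.2 and 67.1 CPM against 247, 256 and 217 CPM (fold change -1.87, SE 0.30, adjusted p = 0.00078), were lower. The ERK phosphatase Dusp4 was higher, with a fold change of 2.99 (SE 0.44, adjusted p = 0.00039). Fgfr4, the receptor most tied to myoblasts, was at 108, 70.2 and 113 CPM against 154, 81.9 and 67.9 CPM, with overlapping groups (fold change -0.04, SE 1.01, adjusted p = 0.99). The growth factor Igf1 was at 4.62, 3.77 and 0.949 CPM against 999, 519 and 729 CPM (fold change -7.90, SE 0.93, adjusted p = 8.2e-05), and Igfbp4, which binds it, at 20.9, 22.9 and 20.1 CPM against 368, 331 and 338 CPM (fold change -4.02, SE 0.44, adjusted p = 2.1e-05). Igf1 is made by fibroblasts and macrophages as well as by muscle. Of 15 genes of that axis 5 were lower (33.3%, against 5.68% of all genes) and none higher. The 6 libraries alone called 7 lower and 1 higher. The lower count was 2 without Fet replicate 1 or iPax3 replicate 1 or 3 and 3 without Fet replicate 2 or 3.

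Of 30 genes of TGF-beta, BMP and Wnt signalling 9 were called lower and none higher (median -1.73; 14 lower and 6 higher with the 6 libraries alone), and 4 of the 9, Wif1, Dkk2, Sfrp1 and Sfrp2, are secreted antagonists of Wnt. The lower count was 4 without iPax3 replicate 1 or 3. Sfrp1 was lost without iPax3 replicates 1 and 3 (0.092 and 0.091). Wif1 was at 0.0700, 0.358 and 0.0527 CPM against 22.5, 33.2 and 26.1 CPM (fold change -7.38, SE 1.04, adjusted p = 0.00024), and Dkk2 at 0.455, 1.55 and 1.90 CPM against 83.0, 109 and 112 CPM (fold change -6.29, SE 0.79, adjusted p = 9.1e-05). Neither overlapped between the groups. In the Notch pathway, 5 of 20 genes were lower and none higher (median -1.09; 11 and 4 of 19 with the 6 libraries alone, and 3 lower without any 1 of the 6 libraries). Jag1, a Notch ligand, was at 4.48, 6.82 and 2.13 CPM against 173, 79.6 and 93.4 CPM (fold change -4.67, SE 0.70, adjusted p = 0.00042), and Hey1, a Notch-induced repressor, at 1.94, 2.67 and 2.71 CPM against 25.9, 19.5 and 17.0 CPM (fold change -3.06, SE 0.59, adjusted p = 0.0032). The others were Dll4, Hey2 and Notch4, which are known from endothelial cells. Hey2 and Notch4 were lost without any 1 of the 6 libraries, with adjusted p from 0.072 to 0.18. Dll4 had no read in iPax3 and was at least 299-fold higher in Fet. Summed endothelial markers were 33.4, 30.8 and 25.6 CPM in iPax3 and 327, 587 and 737 CPM in Fet; their part in the Notch difference was not tested.

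Fibrillar collagens and small proteoglycans were lower in iPax3 for most of their members, and basement membrane and remodelling genes for few. Of 23 genes of fibrillar collagens and interstitial matrix, 16 were called lower (69.6%) and 1 higher, with a median of -4.07, and the 6 libraries alone gave 19 and 2. Col1a1 (ENSMUSG00000001506, plus strand of chr11:94936224-94953042 in GRCm38), a chain of type I collagen, was at 10.7, 42.8 and 11 CPM in iPax3 and at 15933, 10709 and 10042 CPM in Fet (fold change -9.15, SE 1.49, adjusted p = 0.0014). Its partner Col1a2 was at 46.9, 50.8 and 12.4 CPM against 8933, 9597 and 8914 CPM (fold change -7.96, SE 0.62, adjusted p = 1e-06), and Col3a1 at 396, 63.2 and 81.6 CPM against 10071, 12981 and 11859 CPM (fold change -6.01, SE 0.79, adjusted p = 0.00021). No iPax3 library reached the lowest Fet library for any of these 3. Elastin (Eln) was at 0.245, 0.286 and 0.290 CPM against 334, 316 and 295 CPM (fold change -10.14, SE 1.06, adjusted p = 2.4e-05). Of 10 small leucine-rich proteoglycans, which organise collagen fibrils, 7 were lower and none higher (median -9.11; all 10 lower with the 6 libraries alone), among them lumican (Lum) at 0.403, 0.358 and 0.369 CPM against 363, 443 and 381 CPM (fold change -10.01, SE 0.50, adjusted p = 9.4e-09). Tenascin C (Tnc) was the gene called higher, at 769, 939 and 895 CPM against 280, 274 and 203 CPM (fold change 1.78, SE 0.50, adjusted p = 0.036), and was lost without any 1 of the 6 libraries, with adjusted p from 0.073 to 0.15. Matrix genes are also expressed by fibroblasts and cartilage cells, whose summed markers were higher in Fet, as given below. Those marker lists themselves hold matrix genes, such as Lum and Col2a1, so their sums are not separate from the matrix difference.

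Among basement membrane genes, Lama4, a laminin chain of muscle and vessels, was at 1.23, 1.02 and 0.580 CPM against 292, 367 and 325 CPM (fold change -8.43, SE 0.64, adjusted p = 7.3e-07), Col15a1 was lower by 8.61 and Lamc1 by 0.99, while Col18a1 was higher by 1.14. The other 13 of 17 were not called. Lamc1 was lost without iPax3 replicates 1 and 3 and Fet replicates 1 and 2, with adjusted p from 0.051 to 0.16, and Col18a1 was not called under relative log expression (0.084) or without any 1 library except iPax3 replicate 2, with 0.083 to 0.2. With the 6 libraries alone 4 were higher and 5 lower. Of 18 integrin genes 3 were called each way (4 higher and 9 lower with the 6 libraries alone), and with any 1 of the 6 libraries left out 0 to 2 were called each way. Itga2 and Itga9, with fold changes of 3.37 and -2.40, were lost in 6 and 5 of these omissions, and Itga9 passed without iPax3 replicate 2. Itga3, a laminin receptor subunit, was at 167, 280 and 263 CPM against 13.8, 3.17 and 5.35 CPM (fold change 5.28, SE 1.12, adjusted p = 0.0084, 12 of 14 alternatives, with 0.055 and 0.059 without Fet replicates 2 and 3). Itgb4, the hemidesmosome subunit, was at 171, 127 and 154 CPM against 8.65, 1.04 and 1.35 CPM (fold change 6.07, SE 1.48, adjusted p = 0.019, 9 of 14 alternatives). Without Fet replicates 2 and 3 the adjusted p of Itgb4 was 0.098 and 0.11, and without iPax3 replicates 1 and 3 it was 0.056 for each. Itga4, which binds Vcam1 and fibronectin, was at 31.4, 19.8 and 13.3 CPM against 57.1, 151 and 85.3 CPM (fold change -2.20, SE 0.64, adjusted p = 0.042), but it was lost without any 1 of the 6 libraries, with adjusted p from 0.058 to 0.18. Of 15 genes of matrix remodelling, 1 was higher, the urokinase receptor Plaur (fold change 4.14), and 2 were lower, Timp3 and Adamts2 (-2.71 and -5.59), with 4 and 6 of 13 by the 6 libraries alone. Neither Lama4 nor any of Itga3, Itgb4 and Itga4 overlapped between the groups.

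Markers of cell types other than myoblasts were checked in the Fet libraries, since their sort was not described beyond the strain. Summed tendon and cartilage markers were 7935, 4957 and 4736 CPM in Fet and 212, 111 and 173 CPM in iPax3, with 18 of 21 called lower. That list includes matrix collagens and Egr1, which is also given above among the immediate early genes. Col2a1, the defining collagen of cartilage, was at 3121, 1591 and 1383 CPM in Fet and at 6.81, 6.20 and 2.85 CPM in iPax3 (fold change -8.58, SE 0.58, adjusted p = 2e-07), and Tnmd, of tendon, at 43.2, 48.5 and 57.6 CPM against 0.0525, 0.119 and 0.105 CPM. Summed fibroblast markers were 3733, 4189 and 3972 CPM in Fet and 512, 588 and 412 CPM in iPax3, with 15 of 20 called lower and 1, Ly6a, higher (lost without iPax3 replicate 3 and Fet replicates 2 and 3, with adjusted p of 0.079, 0.065 and 0.073). The receptor Pdgfra, which defines fibroblast progenitors of muscle, was at 277, 338 and 333 CPM in Fet and at 0.560, 1.02 and 0.632 CPM in iPax3. Endothelial markers had 12 of 18 called lower, leukocyte markers 11 of 19 (summed 138, 252 and 169 CPM in Fet against 22.3, 5.77 and 38.6 CPM) and erythroid markers 4 of 12 (31.1, 74.0 and 66.2 CPM against 0.735, 0.358 and 0.395 CPM). In iPax3 the leukocyte sum came mainly from Laptm5, which ranged from 2.46 to 33.3 CPM, while C1qa, C1qc and Tyrobp had no read. Neural and Schwann markers had 8 of 18 and pericyte and smooth muscle markers 5 of 12 called lower. With the 6 libraries alone the lower counts were 19 of 21 for tendon and cartilage, 17 of 20 for fibroblast, 15 of 16 for endothelial, 10 of 13 for leukocyte, 6 of 6 for erythroid, 9 of 15 for neural and 6 of 11 for pericyte markers. The leukocyte count was 5 without any 1 iPax3 library. The erythroid count was 1 to 3, the neural count 3 to 6 and the pericyte count 3 or 4 with any 1 of the 6 libraries left out. No marker of the endothelial, leukocyte, erythroid, tendon and cartilage, neural or pericyte lists was called higher. In bulk libraries fewer cells of a type and less RNA per cell cannot be told apart. The part of such cells in the matrix, Hox, somite and limb, Igf1 and Wnt antagonist differences was not tested. The markers of the fetal myoblast label, Pax7, Myod1 and Myog, were present in all 3 Fet libraries at the levels given above.

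**Figure D4:**
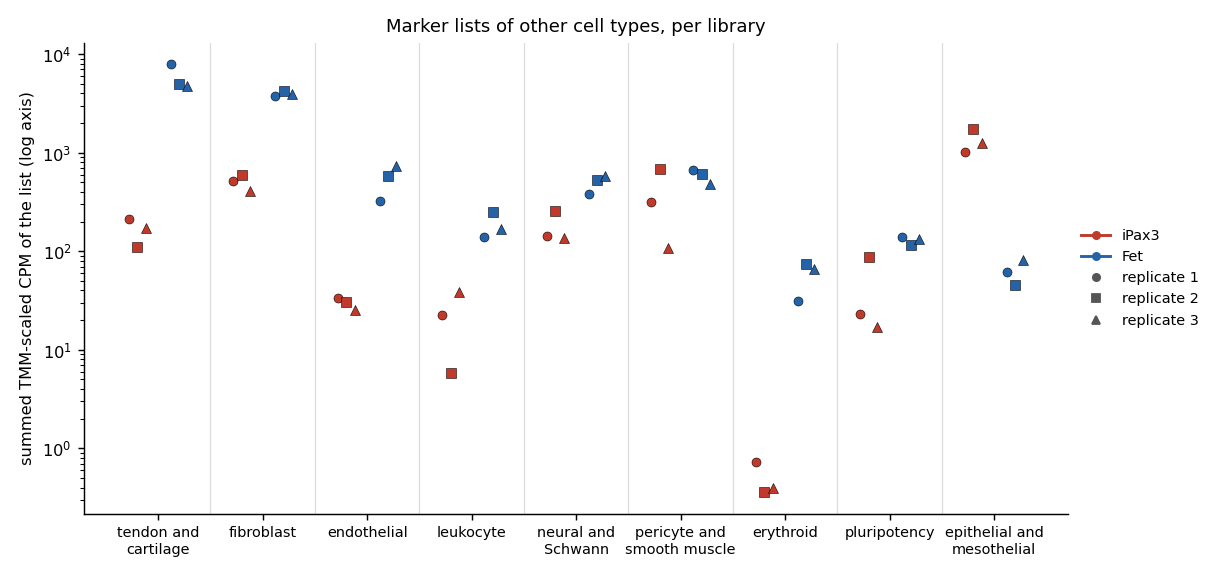
Summed CPM of 9 marker lists in each iPax3 and each Fet library, on a log axis. The Fet libraries are above the iPax3 libraries for the endothelial, leukocyte, erythroid, fibroblast, tendon and cartilage, neural and pluripotency sums and below them for the epithelial and mesothelial sum, while the groups overlap for the pericyte and smooth muscle sum.

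Epithelial and mesothelial genes ran the other way, with summed levels of 1018, 1724 and 1241 CPM in iPax3 and 62.3, 45.5 and 80.8 CPM in Fet. Of 14 tested, 5 were called higher and 1 lower (median 1.81; 6 higher and none lower of 13 with the 6 libraries alone). Krt8, a keratin of simple epithelia, was at 184, 467 and 240 CPM against 1.73, 2.22 and 1.92 CPM (fold change 7.18, SE 0.68, adjusted p = 5.6e-06), and its partner Krt18 was called in 9 of 14 alternatives (fold change 6.71, SE 1.52, adjusted p = 0.013). For Krt18 the adjusted p was 0.051, 0.078 and 0.061 without Fet replicates 1, 2 and 3 and 0.053 without iPax3 replicate 3. The desmosomal plakin Dsp was at 368, 616 and 381 CPM against 5.19, 5.54 and 6.99 CPM (fold change 6.22, SE 0.65, adjusted p = 1.4e-05), and Pkp2, which anchors it, at 35.1, 59.7 and 26.1 CPM against 0.000, 0.152 and 0.428 CPM (fold change 7.23, SE 1.44, adjusted p = 0.0044). Msln, a surface protein of mesothelium, was at 266, 163 and 322 CPM against 0.000, 0.822 and 0.998 CPM (fold change 8.20, SE 1.05, adjusted p = 9.7e-05). All 5 were separated between the groups. Other defining genes of epithelia and mesothelium did not follow: Epcam was at 1.09, 8.39 and 0.659 CPM in iPax3, Cdh1 at 0.805, 58.3 and 0.870 CPM, and Wt1 at 0.000, 2.17 and 0.0264 CPM, with only replicate 2 raised. Pluripotency genes gave 1 call, the lower immediate early gene Klf4, among 12 tested, and it was lost without any 1 of the 6 libraries. The median fold of these 12 genes was 1.26, and the 6 libraries alone called 1 higher and 1 lower of 10. Summed over all 15 genes of the list, Klf4 among them, levels were 23, 87.2 and 17.1 CPM in iPax3 against 140, 116 and 133 CPM in Fet.

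Among imprinted genes, expressed from 1 parental copy, 11 of 31 were called lower (35.5%) and 1, Impact, higher, with a median of -2.21, and 19 and 2 with the 6 libraries alone. The Dlk1-Meg3 domain of chromosome 12 contributed 5 of the 11. Meg3 (ENSMUSG00000021268, plus strand of chr12:109541001-109571726 in GRCm38), the maternally expressed long noncoding RNA of that domain, was at 75.4, 59.0 and 45.6 CPM against 2834, 2072 and 2918 CPM (fold change -5.44, SE 0.29, adjusted p = 1.1e-08). Rian, further along the same strand, was at 128, 82.0 and 48.4 CPM against 2877, 2277 and 2889 CPM (fold change -4.96, SE 0.35, adjusted p = 2.5e-07), and Mirg at 3.55, 1.91 and 1.37 CPM against 67.4, 58.9 and 87.1 CPM (fold change -4.96, SE 0.70, adjusted p = 0.00025). The paternally expressed Dlk1, an inhibitor of adipocyte formation, was at 40.9, 8.82 and 9.38 CPM against 839, 671 and 639 CPM (fold change -5.18, SE 0.81, adjusted p = 0.00078). Genes of both parental copies of the domain were thus lower, with no overlap. Rtl1, the other paternally expressed member, is overlapped by antisense transcripts and the strand setting of the counts was not stated, so its value (fold change -5.99) is uncertain, and its call was lost without any 1 of the 6 libraries, with adjusted p from 0.053 to 0.13. Group means of Meg3 were 192 CPM in iPax7, 855 CPM in Emb and 2151 CPM in Neo. Elsewhere, H19 was at 2321, 50.1 and 1626 CPM in iPax3 and Plagl1 at 2098, 217 and 2099 CPM, so that replicate 2 was far below the other iPax3 libraries for both, and neither was called. Peg3 was at 2814, 2039 and 1789 CPM against 1788, 2284 and 2331 CPM, with a fold change of 0.05 (SE 0.66, adjusted p = 0.98).

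Sex-linked genes differed between the groups. The labels do not give the sex of the cells or animals, and its part in this difference was not tested. Xist, the RNA that coats the inactive X chromosome, was at 1.54, 2.10 and 1.90 CPM in iPax3 and at 1281, 1646 and 1750 CPM in Fet (fold change -9.72, SE 0.85, adjusted p = 4.8e-06). The Y-linked Ddx3y was at 73.2, 7.15 and 127 CPM against 1.73, 0.213 and 0.143 CPM (fold change 8.21, SE 1.38, adjusted p = 0.0013), and iPax3 replicate 2 was the lowest for Ddx3y, Uty and Eif2s3y. Both genes were apart between the groups, so sex cannot be told apart from the other differences between iPax3 and Fet.

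Among called genes reaching 20 CPM on their higher side, the largest differences upward were Tmprss11f, Msln, Selp, Cdkn2a, AU018091, Cdkn2b, Dhrs9, Il18rap, Pkp2 and Krt8. Tmprss11f, a transmembrane serine protease of epithelia, was at 51.8, 57.4 and 64.8 CPM against 0.000, 0.152 and 0.214 CPM (fold change 8.36, SE 1.64, adjusted p = 0.0074, 0.052 without Fet replicate 2). P-selectin (Selp), an adhesion molecule of platelets and endothelium, was at 211, 38.8 and 215 CPM against 0.000, 0.518 and 0.856 CPM (fold change 7.92, SE 1.43, adjusted p = 0.0025), beside the endothelial marker sums of 33.4, 30.8 and 25.6 CPM in iPax3, which do not include it. All iPax3 libraries exceeded all Fet libraries in both. AU018091, Dhrs9 and Il18rap held in 7 of 14, 9 of 13 and 10 of 14 alternatives. Their calls were lost without Fet replicates 1, 2 and 3, with adjusted p from 0.11 to 0.16, 0.061 to 0.11 and 0.062 to 0.086, AU018091 also without iPax3 replicates 1 and 3 (0.089 and 0.13), Dhrs9 without iPax3 replicate 2 (0.068) and Il18rap without iPax3 replicate 3 (0.067). The largest differences downward were Thbs4, Srpx, Prelp, Eln, Abca8a, Meox2, Enpp2, Lum, Ednrb and Rtl3, with fold changes from -10.31 to -9.96. Thbs4, a thrombospondin of tendon and muscle attachment, was at 0.140, 0.215 and 0.105 CPM against 168, 210 and 227 CPM (fold change -10.31, SE 1.01, adjusted p = 1.3e-05). The endothelin receptor Ednrb was at 0.0525, 0.119 and 0.0791 CPM against 45.0, 93.1 and 132 CPM (fold change -10.01, SE 0.84, adjusted p = 2e-06).

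Among called genes with a difference of at least 2 on the log2 scale, those with the highest mean CPM in iPax3 included several of the actin cytoskeleton and cell cortex. CPM here also grows with transcript length. Non-muscle myosin heavy chain Myh9 was at 1529, 2090 and 1578 CPM against 144, 361 and 300 CPM (fold change 2.68, SE 0.31, adjusted p = 3.2e-05). Annexin A1 (Anxa1), a calcium-dependent membrane binding protein, was at 1050, 1506 and 1009 CPM against 27.7, 40.8 and 43.6 CPM (fold change 4.96, SE 0.50, adjusted p = 1.1e-05). Nephronectin (Npnt), a matrix ligand of integrin alpha 8, was at 1450, 1445 and 704 CPM against 29.4, 36.6 and 36.4 CPM (fold change 5.12, SE 0.90, adjusted p = 0.0023), while Itga8 itself was lower, at 2.54, 6.89 and 0.843 CPM against 62.3, 45.7 and 35.1 CPM (fold change -3.79, SE 0.88, adjusted p = 0.013, with 0.077 and 0.068 without iPax3 replicates 1 and 3). The lysosomal protease Ctsl was at 715, 734 and 1395 CPM against 72.6, 122 and 123 CPM (fold change 3.15, SE 0.45, adjusted p = 0.00026). None of these 5 overlapped between the groups. The others of that rank were Hmga2, Tpm1, Ccng1, Perp, Lgals1 and Lmna, and the calls of Lgals1 and Lmna were lost without any 1 of the 6 libraries (adjusted p from 0.054 to 0.1 and from 0.078 to 0.11), except that Lmna passed without iPax3 replicate 2. The genes with the highest mean CPM in Fet were Col1a1, Col3a1, Col1a2, Rian, Meg3, Col5a1, Col2a1, Marcks, Fstl1 and Igfbp5, of which 5 are fibril-forming collagens. The call of Igfbp5 was lost without any 1 of the 6 libraries (0.1 to 0.23), and that of Marcks without Fet replicate 1 (0.099) and each iPax3 replicate (0.06 to 0.12).

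**Figure D5:**
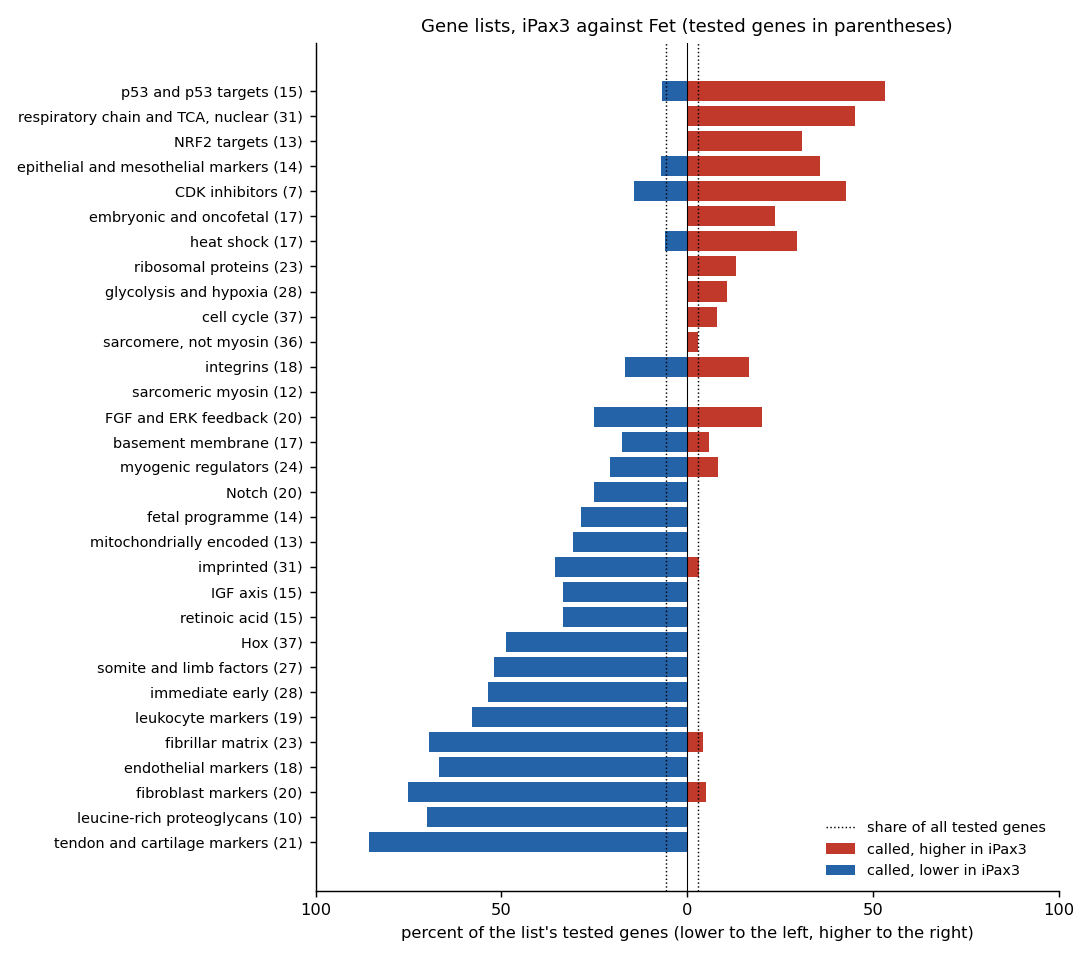
Percent of the tested genes of each of 31 gene lists called higher (red, to the right) or lower (blue, to the left) in iPax3 than in Fet. Dotted lines mark 2.85% and 5.68%, the shares of all tested genes called in each direction; the tendon and cartilage, fibroblast, leucine-rich proteoglycan, fibrillar matrix and endothelial lists reach furthest to the left, and the p53, respiratory chain and CDK inhibitor lists furthest to the right.

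The remaining bulk groups place the called genes along the study's other samples, as a description only, since the genes were chosen for the distance between iPax3 and Fet. Taking for each gene the midpoint of iPax3 and Fet on a scale of log2(CPM + 0.5), the Emb mean lay on the Fet side for 432 of the 500 genes higher in iPax3 (86.4%) and for 631 of the 998 lower ones (63.2%). The Neo mean lay on the Fet side for 81.8% and 88%, and the iPax7 mean for 19.8% and 14.1%. Hmga2 was among the genes where Emb resembled iPax3 in level, and Cdkn2a, Msln and Krt8 among those where it resembled Fet. Genes lower in iPax3 that were also low in Emb included Nfix, with an Emb mean of 13.3 CPM, Col15a1, with 1.37 CPM, and Aspn, a proteoglycan, with 1.78 CPM against 476, 353 and 346 CPM in Fet, whereas Hoxc4, Hoxa9 and Zic1 had higher means in Emb, at 117, 124 and 558 CPM, than in any Fet library. Antigen presentation and interferon genes gave no call in edgeR among 24 tested, although 5 reached 0.05 before adjustment. DESeq2 called 1 each way and the 6 libraries alone gave 2 each way. Of 17 chemokine and cytokine genes 6 were lower and none higher, and the 6 libraries alone gave 5 lower and 1 higher of 11. Cxcl2 led the lower ones, at 0.0175, 0.0238 and 0.000 CPM against 5.19, 7.31 and 7.34 CPM (fold change -8.42, SE 0.73, adjusted p = 2.5e-06), beside the leukocyte marker sums given above.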

How the data were processed

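Bulk RNA was sequenced from 15 libraries in 5 groups of 3, of which 6 are compared here; the single-cell samples were not used. The deposited tables hold raw counts per gene for each library. Per the submitters' processing notes, which name tools with no role or order, CASAVA 1.8, HISAT2 2.0.2, Subread and featureCounts 1.4.6 were used with the mm10 build. How strand and multiply matching reads were treated, and against which gene models, is not given in the sources used here, so counts of genes with near-identical copies (Gapdh, Hsp90ab1, ribosomal protein and mitochondrial genes) or with overlapping transcripts are uncertain. Of 47728 gene identifiers, 47309 matched GENCODE M21, which supplied names and coordinates.

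Counts were fitted in R 4.3.3 with edgeR 4.0.16 (TMM scaling, filterByExpr, robust quasi-likelihood test, 1 mean per group over all 15 libraries), and p-values of the iPax3 minus Fet contrast were adjusted by Benjamini-Hochberg over all 17571 genes. The standard error is the fold change divided by the square root of F. The alternatives were DESeq2 1.42.0, relative log expression, no low-count filter, the 6 libraries alone, the replicate number as a block, counts thinned to 516504 per library, and leaving out each of the 6 libraries or iPax7 replicate 1, which stands apart. On a simulated data set the fit recovered only part of the changed genes, and the share of false calls was above the threshold, so a gene that was not called is not shown to be unchanged. Replicate numbers were taken from the labels; same-numbered libraries of the compared groups had deviations correlated at 0.0299, -0.101 and 0.0355, so they were not treated as pairs.

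Genes were named by rule: called, libraries apart and at least 20 CPM in the higher group, the 10 largest folds and the 10 highest levels (fold of at least 2 on the log2 scale) each way; up to 5 called members per list by p and up to 2 of the smaller direction; and every myogenic regulator, sarcomeric myosin, CDK inhibitor and sex-linked gene, Nfia, Nfib, Nfic, Nfix and Id1 to Id3, apart from a regulator not reported here. Predicted genes, pseudogenes, Xist and Y-linked genes were kept out of the ranked parts. The comparison, the 50 gene lists and the tests were chosen with earlier results of these data known. Named after their values were seen were Atf3, Bax, C1qa, C1qc, Cdh1, Dlk1, Dusp1, Egr2, Epcam, Fgfr4, Fosl1, H19, Hoxb6, Hoxb9, Itga4, Itga7, Junb, Laptm5, Lin28a, Meox1, Nr4a2, Peg3, Phlda3, Plagl1, Plk2, Rtl1, Slc2a3, Tnmd, Tnnt2, Tnnt3, Trp53, Tyrobp, Vcam1, Wt1 and mt-Co3.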

Additional observations from a re-analysis of the deposited data

How the results depend on the processing

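The count of called genes, 1498 in the fit to all 15 libraries, was 6369 with the 6 libraries alone, 5413 with those 6 and the replicate number as a block, 2786 with DESeq2 and 1968 without iPax7 replicate 1. It ranged from 624 to 899 when 1 of the 6 libraries was left out. With the block and all 15 libraries it was 1155; since same-numbered libraries did not deviate together, the numbers are not read as pairing. Against the count without Fet replicate 1, 886, the fit with that library gave 1498. In none of these settings did a gene called in both have the opposite sign. Of the 206 named genes called, 133 were called under every alternative that tested them. Slc4a1, an erythroid anion exchanger, had a fold change of -7.05 with all counts and 0.00 when counts were thinned. The cause of these shifts was not tested. Depth limits genes below about 1.73 CPM, a single read in Fet replicate 1.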
